A study of Hydra vulgaris with 36 samples.

Results

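The comparison described here is that of proximal tentacle parts after Sp5 RNAi with proximal tentacle parts after mock RNAi in the freshwater polyp Hydra vulgaris, strain Hm_105. Its members are all libraries of these kinds, chosen by their labels: 3 Sp5 RNAi and 4 mock libraries, 7 of the 36 in the series. RNAi lowers a transcript by small interfering RNA, which was electroporated 3 times into 20 to 30 animals per treatment at 1.35 µM. Collection followed 7 days after the third electroporation. Animals of both groups carry the label wild type, both went through the electroporations, and they differ in their label by the target alone, Sp5 or mock; the parts come from tentacles at their original position and not from the ectopic tentacles that also exist after Sp5 RNAi. Tissue was pooled in lysis buffer, so a library stands for many animals. Nothing in the labels says that the libraries of a group came from separate cultures, so p-values measure the spread between the samples fitted, which may be technical. That spread was estimated over 25 libraries in 7 groups of the series, these 7 libraries among them. RNA was measured in bulk, so fewer cells of a type and less RNA per cell cannot be told apart. The Sp5 transcript was not matched to a name among the genes, so the depth of the knockdown was not measured here.

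Sp5 is a zinc finger transcription factor. In Hydra it acts downstream of Wnt/β-catenin signalling and represses the gene of the ligand Wnt3, and animals with less Sp5 form additional heads. Wnt ligands bind Frizzled receptors at the cell surface, and in the canonical branch of the pathway this stabilises β-catenin, which drives transcription of target genes. The tentacle epithelium consists largely of battery cells, non-dividing epithelial cells that hold the mounted stinging cells (nematocytes) and that are replaced by cells moving in from the head at the tentacle base. The proximal part is the part next to this zone of entry.

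After Sp5 RNAi, 619 genes rose and 339 fell in the proximal parts, and large changes were mostly rises. The calls are 958 of 14332 genes tested (6.68%), with 4.32% of the tested genes higher and 2.37% lower (edgeR quasi-likelihood test, Benjamini-Hochberg adjusted p under 0.05, n = 3 against 4). At an unadjusted p under 0.05 there were 3140 genes. The size of the change differed between the directions. Genes that rose had a median log2 fold change of 2.12, with quartiles of 1.59 and 3.37. Genes that fell had a median of -1.41, with quartiles of -1.77 and -1.09. Over all tested genes the median was 0.03. A log2 change of more than 3 was fitted for 184 of the risen and 22 of the fallen genes. The levels differed too. The median risen gene had a mean of 9.93 CPM over the 7 libraries (counts scaled to a library size of 1 M, with TMM factors), and the median fallen gene 83.7 CPM.

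**Figure D1:**
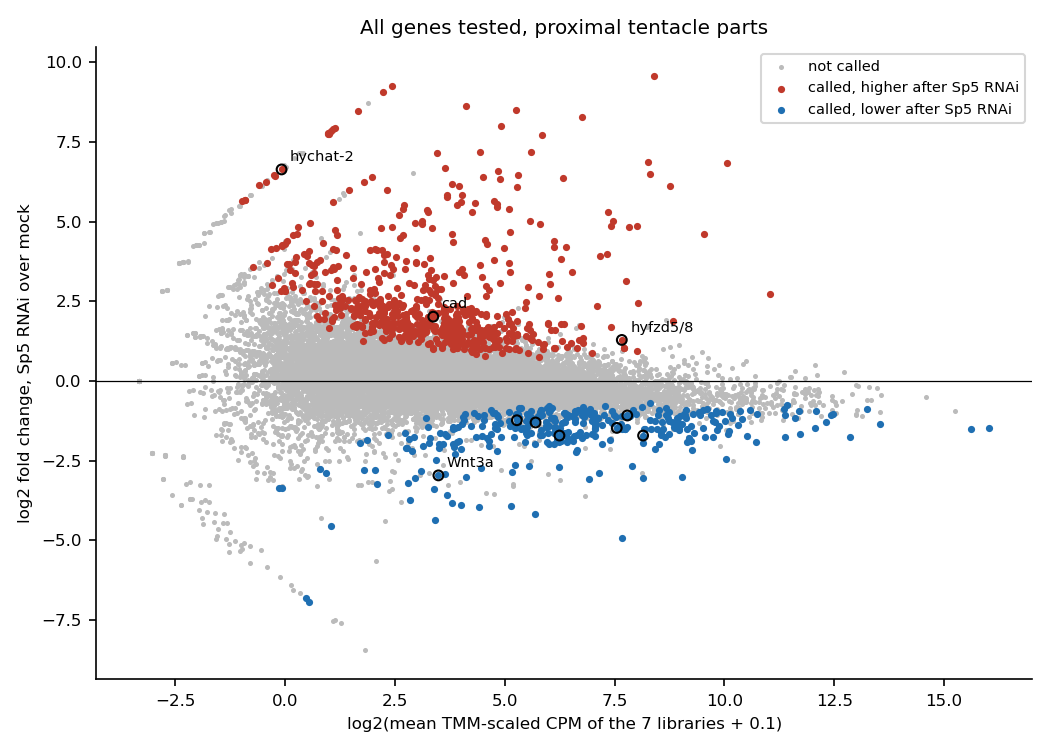
Log2 fold change of Sp5 RNAi over mock (vertical axis) against the log2 of mean CPM over the 7 libraries (horizontal axis) for the 14332 genes tested. The 619 called rises in red reach a log2 fold change of 9.58, the 339 called falls in blue extend to the highest levels at the right, and the 10 called genes with a name are circled, with 4 of them labelled.

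The 3 Sp5 RNAi libraries lay above all 4 mock libraries for 517 of the risen genes (83.5%) and below all of them for 260 of the fallen genes (76.7%). Among all tested genes, the groups did not overlap for 2157 (15.1%). Of the risen genes, 97 had at most 3 counts in every mock library, and 17 of these had 0 counts in all of them. Their mean level after Sp5 RNAi ran from 0.948 to 88.4 CPM, with a median of 3.32 CPM, and 95 of the 97 had counts in all 3 Sp5 RNAi libraries. Low mock counts alone were more common than that, since 723 tested genes had at most 3 counts in every mock library and 93 had 0 counts in all of them. The opposite pattern held for 9 fallen genes, which had at most 3 counts in every Sp5 RNAi library. Among all tested genes, counts as low in every Sp5 RNAi library were found for 619. A fitted fold change of a gene at 0 in a whole group is not measured. With such genes set to the bound given by 3 counts over the group, the median of the risen genes was 2.11, and 49 of them passed a log2 change of 5, against 64 as fitted.

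In share of the library, the fallen genes weighed far more than the risen genes. The 339 fallen genes took 12.1 to 12.9% of the counts in Sp5 RNAi libraries, against 18.9 to 25.1% in mock libraries. The 619 risen genes took 2.75 to 3.42% in Sp5 RNAi libraries, against 0.296 to 0.447% in mock libraries. These shares describe genes chosen for their change and are not a test. A pair of genes made up much of the loss. LOC100202036 and LOC100206987 together took 4.88 to 5.44% of counts in Sp5 RNAi libraries and 7.75 to 12.3% in mock libraries.

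Library totals were 2.57 to 3.22 M (mega) counts after Sp5 RNAi and 2.39 to 8.79 M counts in mock. A count of 10 was reached by 10326 to 11287 genes in Sp5 RNAi libraries and by 8243 to 11966 in mock libraries. The 10 most abundant genes took 14.7% ± 1.4 of the counts after Sp5 RNAi (SD, n = 3) and 20.9% ± 2.7 in mock (SD, n = 4), without overlap (two-sided exact permutation p = 0.0571, the smallest the 35 arrangements allow). Without the called genes, the share of the 10 most abundant was 10.7% ± 1.88 after Sp5 RNAi (n = 3) and 11.8% ± 1.59 in mock (n = 4; exact permutation p = 0.457). Leaving out the called genes removes genes chosen for a difference between the groups, so this p-value cannot show that the shares were alike. With the first share as a covariate, 71 genes were called, 53 of them among the 958, and with the share taken from uncalled genes, an alternative chosen after seeing the data, 984 were called, 827 of them among the 958. The share of the most abundant genes and the treatment therefore cannot be told apart in the first of these fits. The second fit cannot separate them either, as its share leaves out the genes called in this same comparison. Single libraries mattered as well, as the count was 261 without Sp5 RNAi replicate 3, 380 without mock replicate 2, 529 without Sp5 RNAi replicate 2 and 613 without mock replicate 3. Called in every fit without 1 library were 188 genes, 127 of them higher and 61 lower.

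Genes with a name other than a RefSeq locus number were few: 117 of the genes in the table, 104 of them tested, of which 3 rose and 7 fell (9.62%, against 6.68% of all tested genes). Without Sp5 RNAi replicate 3, whose removal lowered the count of calls most, 1 of these 10 calls was kept. Among the 104, the median log2 fold change was -0.18, against 0.03 over all tested genes. The account of their roles below goes from Wnt ligands and their receptors to transcription factors, growth factors, junction and matrix proteins and cell type markers.

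Among the Wnt ligands, Wnt3a and hywnt8 fell. Of the 11 Wnt genes in the table, 6 were tested. Of these, 2 fell and none rose (33.3% called, against 6.68% of all tested genes), and the median log2 fold change was -0.26. A share of so few genes says little about the group. Wnt3a, a locus that RefSeq lists under the name of a Wnt3 ligand, had 2.48, 3.15 and 1.25 CPM in the Sp5 RNAi libraries, against 7.35, 25.7, 24.2 and 14.2 CPM in the mock libraries. The highest Sp5 RNAi library lay below the lowest mock library. The mean was 2.29 ± 0.963 CPM after Sp5 RNAi (SD, n = 3) and 17.8 ± 8.65 CPM in mock (SD, n = 4), 7.78-fold lower after Sp5 RNAi, with a log2 fold change of -2.96 (SE 0.69, edgeR adjusted p 0.0106). The call was lost without Sp5 RNAi replicate 3 and with the covariate of the most abundant genes (edgeR adjusted p 0.177).

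hywnt8, a Wnt ligand gene known from the tentacle zone of Hydra, had 25.6, 22.1 and 18.1 CPM after Sp5 RNAi, against 31.1, 69.8, 56.8 and 47.5 CPM in mock. Its log2 fold change was -1.23 (SE 0.37, edgeR adjusted p 0.0426), 2.34-fold lower on the means. The groups did not overlap, but the closest libraries were only a few CPM apart, and the call held in 5 of 16 alternatives, being lost without any of the Sp5 RNAi replicates and without mock replicate 2 or 3. The other 4 Wnt ligands tested were not called. hywnt5a, a ligand of the non-canonical branch, had 90.4, 98.8 and 114 CPM after Sp5 RNAi and 76.4, 117, 97.3 and 150 CPM in mock. Its log2 fold change was -0.13 (SE 0.26), and its libraries overlapped.

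hywnt7 had 8.67, 6.3 and 31.9 CPM after Sp5 RNAi and 11.8, 5.7, 4.97 and 41 CPM in mock. Each group thus held 1 library far above its others. hywnt16 had a log2 fold change of -0.39 (SE 0.35) with overlapping libraries. hywnt11, at 1.24, 5.91 and 1.88 CPM after Sp5 RNAi and 1.23, 0, 0 and 0.651 CPM in mock, was the ligand with the highest positive value, a log2 fold change of 2.44 (SE 0.91, edgeR adjusted p 0.106). The level of hywnt11 in mock rested on 7 counts in all. The 5 Wnt genes left out for low counts, hywnt1, hywnt2, hywnt9/10a, hywnt9/10b and hywnt9/10c, had at most 4 counts in any of the 7 libraries.

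Of 4 genes for Wnt receptors and transducers, 1 rose and none fell (25% on a single gene, against 6.68% of all tested genes). That gene, hyfzd5/8, encodes a Frizzled receptor. It had 260, 349 and 314 CPM in the Sp5 RNAi libraries, against 121, 109, 121 and 151 CPM in the mock libraries. Every Sp5 RNAi library was above every mock library by a wide margin. The mean was 307 ± 45 CPM after Sp5 RNAi (SD, n = 3) and 125 ± 17.8 CPM in mock (SD, n = 4), 2.45-fold higher, with a log2 fold change of 1.29 (SE 0.23, edgeR adjusted p 0.002). Of the 10 called genes with a name, hyfzd5/8 was the only one called in each fit without 1 library, and it lost its call in 1 of 16 alternatives, that with the covariate of the most abundant genes (edgeR adjusted p 0.164).

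ctnnb1, the gene of β-catenin, had 370 ± 145 CPM after Sp5 RNAi (SD, n = 3) and 212 ± 90.1 CPM in mock (SD, n = 4). The log2 fold change was 0.80 (SE 0.33, edgeR adjusted p 0.153), and the libraries overlapped, with mock replicate 4 at 344 CPM. GSK3, the kinase that marks β-catenin for degradation, had a log2 fold change of -0.22 (SE 0.24). stbm (strabismus), a membrane protein of the planar polarity branch, had one of -0.31 (SE 0.24). Neither was called, and both overlapped between the groups.

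**Figure D2:**
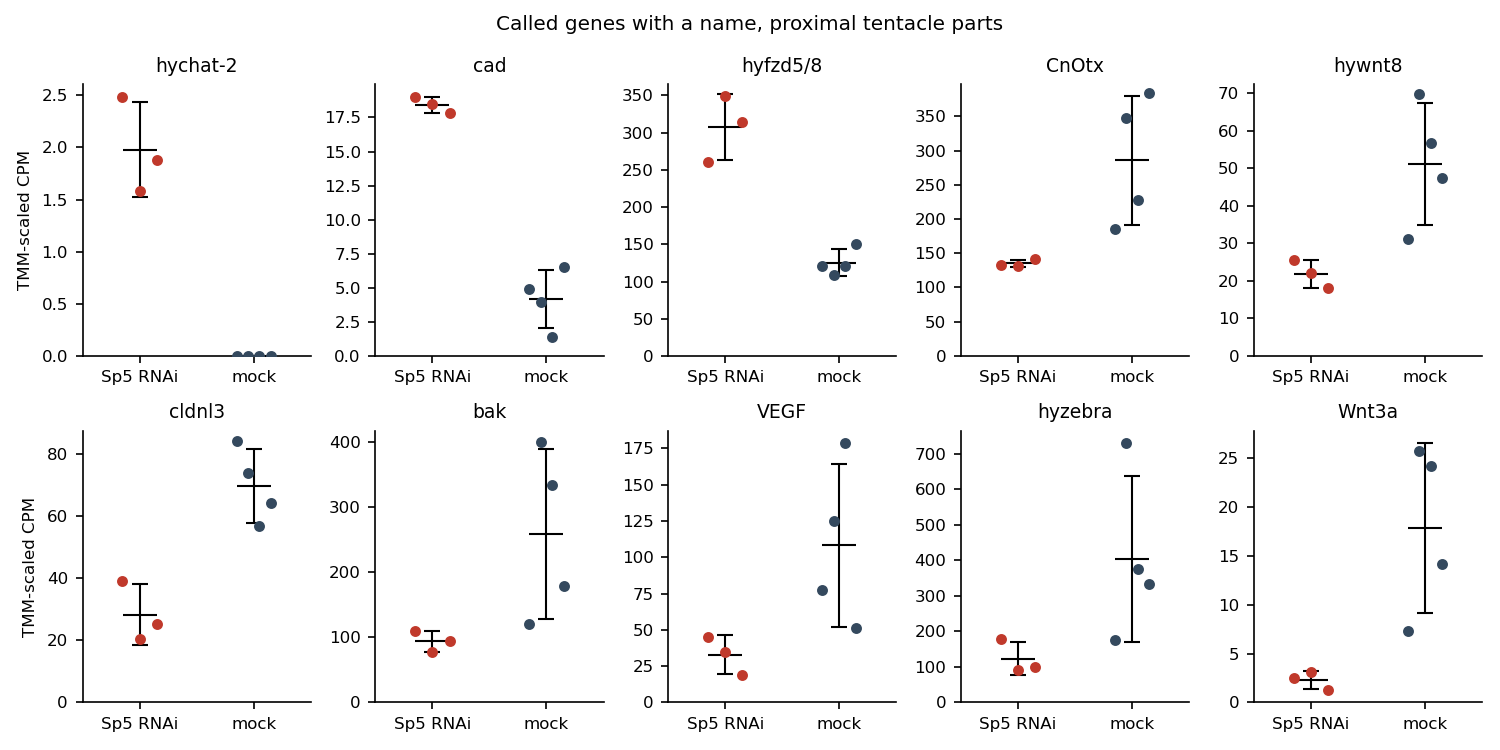
CPM of the 10 called genes with a name in each proximal library, Sp5 RNAi at the left and mock at the right of each panel; points are libraries, horizontal bars means and error bars SD (n = 3 and n = 4). The first 3 panels hold the genes that rose and the other 7 those that fell; only hyzebra overlaps between the groups.

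Among 17 transcription factor genes tested, 1 fell and none rose (5.88%, near the 6.68% of all tested genes), with a median log2 fold change of -0.12. CnOtx, a homeobox gene of the Otx family, had 133, 132 and 141 CPM after Sp5 RNAi, against 186, 347, 228 and 384 CPM in mock. Its Sp5 RNAi libraries lay within a narrow band below all mock libraries, and its log2 fold change was -1.08 (SE 0.27, edgeR adjusted p 0.0156). Alx, an aristaless-type homeobox gene known to mark sites of tentacle formation, had 29.7, 46.9 and 43.5 CPM after Sp5 RNAi and 95.6, 57, 66.8 and 74.7 CPM in mock. The groups did not overlap, but with a log2 fold change of -0.88 (SE 0.33) it was not called (edgeR adjusted p 0.114). CnASH, an achaete-scute homologue known from nematocyte differentiation, was not called either, with a log2 fold change of -0.95 (SE 0.33, edgeR adjusted p 0.0791).

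Bra2, a brachyury gene of the Hydra head, had 4.95, 4.33 and 3.44 CPM after Sp5 RNAi and 0.409, 2.49, 0 and 1.95 CPM in mock. It did not pass the test (log2 fold change 1.54, SE 0.63, edgeR adjusted p 0.143), although the groups did not overlap. Its paralogue Bra1 had no counts in the Sp5 RNAi libraries and 4 counts in all in the mock libraries. The budhead gene, a forkhead factor of the head, had 4 counts after Sp5 RNAi and 0 in mock, too few for the test. zic1, a zinc finger gene of the Zic family, had 4.54, 21.7 and 26 CPM after Sp5 RNAi, against 11, 23.9, 24.2 and 23.1 CPM in mock, with no direction that held across libraries.

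Of 12 genes for growth factors and their receptors, VEGF alone was called (8.33%, near the 6.68% of all tested genes). VEGF, a gene of the vascular endothelial growth factor family, had 45, 35 and 18.8 CPM after Sp5 RNAi, against 77.2, 125, 179 and 51.4 CPM in mock. The gap between the nearest libraries was small beside the spread within mock. The log2 fold change was -1.71 (SE 0.40, edgeR adjusted p 0.0117), and the call was lost in the fit of the 7 proximal libraries alone, without Sp5 RNAi replicate 3 and with the covariate of the most abundant genes, where the value was 0.01. The receptor gene FGFR, of the fibroblast growth factor receptors, ran from 6.6 CPM to 47.2 CPM across the Sp5 RNAi libraries and from 1.42 CPM to 10.9 CPM across the mock libraries, with a log2 fold change of 1.85 (SE 0.60, edgeR adjusted p 0.0619). ilp1, an insulin-like peptide gene, had 28.2 ± 8.52 CPM after Sp5 RNAi (SD, n = 3) and 60.6 ± 17.9 CPM in mock (SD, n = 4) and was not called either (edgeR adjusted p 0.176).

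Among 9 junction and matrix genes tested, cldnl3 fell and none rose (11.1% on a single gene, against 6.68% of all tested genes). The median log2 fold change was -0.59. cldnl3, a claudin-like gene, which belongs to a family of cell junction proteins, had 39.2, 20.5 and 25.3 CPM after Sp5 RNAi, against 84.2, 74.1, 56.8 and 64.3 CPM in mock (log2 fold change -1.30, SE 0.33, edgeR adjusted p 0.0165). Of its relatives, CLDNL1 and cldnl12 overlapped between the groups, at -0.19 and -0.45 on the log2 scale. The collagen gene col2 had 1175 ± 251 CPM after Sp5 RNAi (SD, n = 3) and 2333 ± 1071 CPM in mock (SD, n = 4), with an edgeR adjusted p of 0.0728. INX1, an innexin of gap junctions, overlapped between the groups, at 4784 ± 662 CPM after Sp5 RNAi (SD, n = 3) and 4171 ± 493 CPM in mock (SD, n = 4).

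Of 3 cell death genes, bak, a pro-apoptotic gene of the Bcl-2 family, fell (33.3% on a single gene, against 6.68% of all tested genes). It had 109, 77.2 and 94.5 CPM after Sp5 RNAi, against 120, 400, 334 and 179 CPM in mock, a log2 fold change of -1.47 (SE 0.36, edgeR adjusted p 0.0148). Mock replicate 1 lay close to the Sp5 RNAi libraries and the other 3 mock libraries well above them. The anti-apoptotic bcl-2 and the caspase gene casp8 were not called, with log2 fold changes of -0.09 and 0.23. The calls of bak and CnOtx each held in 11 and that of cldnl3 in 12 of 16 alternatives, and all 3 were lost without Sp5 RNAi replicate 2, without Sp5 RNAi replicate 3 and in the fit of the 7 proximal libraries alone. Those of bak and CnOtx were lost without mock replicate 2 as well.

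The remaining 3 called genes with a name were hyzebra, cad and hychat-2. hyzebra had 178, 91.7 and 101 CPM after Sp5 RNAi, against 177, 731, 375 and 332 CPM in mock (log2 fold change -1.71, SE 0.47, edgeR adjusted p 0.028), with the highest Sp5 RNAi library just above the lowest mock library. cad had 19, 18.5 and 17.8 CPM after Sp5 RNAi, against 4.9, 3.92, 1.42 and 6.51 CPM in mock (log2 fold change 2.02, SE 0.60, edgeR adjusted p 0.0418). After Sp5 RNAi the values were nearly equal, but the call held in 6 of 16 alternatives and, among fits without 1 library, in that without mock replicate 4 alone. hychat-2 had 16 counts over the 3 Sp5 RNAi libraries and 0 in all 4 mock libraries, a level at least 8.37-fold higher against a floor of 3 counts over the mock group (edgeR adjusted p 0.0155). The calls of hychat-2 and hyzebra were lost without Sp5 RNAi replicate 3, and that of hyzebra also without Sp5 RNAi replicate 2 or mock replicate 2. Over all alternatives hyzebra held its call in 9 of 16, and was not called by voom, in the fit of the 7 proximal libraries alone or with the covariate. hychat-2 held its call in 12 of the 15 in which it was tested, and lost it with thinned counts and with the covariate as well. No call was made in either direction among 10 kinase and G protein genes tested (0%, against 6.68% of all tested genes). At an unadjusted p under 0.05 there was 1 of them, against 3140 of all 14332 tested genes. DESeq2 and voom also called 0 of the 10, and so few genes say little about the group.

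Markers of the tissue and of other cell types were set beside these results. Annexin-12, a marker of tentacle battery cells, was abundant in all 7 libraries, with 12485, 6874 and 4736 CPM after Sp5 RNAi and 7588, 17322, 15922 and 7119 CPM in mock. The tentacle label thus had its marker in both groups, and the values overlapped (log2 fold change -0.58, SE 0.43, edgeR adjusted p 0.46). Nematocyte genes were all lower on average after Sp5 RNAi without passing the test. All 8 tested had negative values with a median of -1.03, 0 were called by edgeR, DESeq2 or voom, and 0 had an unadjusted p under 0.05. Of all 14332 tested genes, 6846 had negative values, 6.68% were called by edgeR and 3140 had an unadjusted p under 0.05. The absence of calls among 8 genes thus says little.

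The summed level of the 8 nematocyte genes was 36.3 to 56.9 CPM after Sp5 RNAi, with a median of 39 CPM, and 63 to 330 CPM in mock, with a median of 74 CPM. The groups did not overlap in this sum, and none of the 8 genes was at 0 in a whole group. The early nematocyte gene nb001 made up much of the mock range, with 12, 13.8 and 13.5 CPM after Sp5 RNAi and 31.5, 213, 39.8 and 16.9 CPM in mock (log2 fold change -2.52, SE 1.47, edgeR adjusted p 0.334). Mock replicate 2, high here, is the one without which the count of called genes was 380. In distal parts of the tentacle the sum of the 8 genes overlapped, at 32.4 to 36.4 CPM after Sp5 RNAi and 22.4 to 61.8 CPM in mock. In ectopic tentacles of Sp5 RNAi animals, which were sequenced whole, the same sum was 543 to 6815 CPM. The part of nematocyte content in the other results was not tested. Markers of neurons, gland cells, basal disk and dividing cells had no match by name, so these cell types were not checked.

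The largest rises concerned genes that mock tentacles barely expressed and that no name describes. For the 12 with the largest rise among called genes with at least 10 CPM on average and no overlap, mean levels ran from 25.2 to 2471 CPM after Sp5 RNAi and from 0.122 to 23 CPM in mock. Gene 100202054, known by its number only, had 1437, 525 and 379 CPM after Sp5 RNAi, against 0, 0.356, 4.26 and 0.814 CPM in mock. The fitted change was 9.58 on the log2 scale (SE 1.27, edgeR adjusted p 2.49e-04), and it was called in all 16 alternatives. LOC100202073 had the most counts of the 12, with 3279, 1827 and 2307 CPM after Sp5 RNAi, against 8.58, 1.43, 73.2 and 8.62 CPM in mock (log2 fold change 6.85, SE 1.46, edgeR adjusted p 0.00846). Each Sp5 RNAi library exceeded the highest mock library many times over, and that mock library, replicate 3, stood well above the other 3.

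Gene 100202041 had 1479, 265 and 388 CPM after Sp5 RNAi and 3.27, 6.06, 14.9 and 2.77 CPM in mock (log2 fold change 6.87, SE 1.28, edgeR adjusted p 0.00417). Gene 100205450 was more even, with 305, 261 and 184 CPM after Sp5 RNAi and 1.23, 0.356, 2.84 and 0.163 CPM in mock (log2 fold change 8.28, SE 1.24, edgeR adjusted p 6.33e-04). Gene 100213829 had 221, 85.8 and 93.2 CPM after Sp5 RNAi and 0, 0, 4.26 and 0.163 CPM in mock. These genes shared an order of libraries: in 9 of the 12 the highest library was Sp5 RNAi replicate 1, and in 10 the highest mock library was mock replicate 3.

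For 5 of the 12, the mock group held 1 to 3 counts in all, so that the ratio of levels is wide. LOC105843489 had 58.2, 22.4 and 38.8 CPM after Sp5 RNAi and a single count in mock, a ratio of 505 with a 95% counting interval from 90.1 to 20026. LOC100202039 had 160, 66.5 and 38.5 CPM after Sp5 RNAi and 3 counts in mock, a ratio of 356 (121 to 1730). The ratio was 283 (96.4 to 1377) for LOC101239228, 166 (45.3 to 1376) for LOC100212386 and 120 (40.7 to 588) for LOC100214927. Counting intervals leave out the spread between libraries. LOC101239228 was called in all 16 alternatives, while LOC100214927 lost its call in 9, among them all fits without 1 library but that without Sp5 RNAi replicate 2. The remaining 2 of the 12 were LOC100204588, at 63.1, 63.8 and 22.5 CPM after Sp5 RNAi and at most 1.42 CPM in a mock library, and LOC100212027, at 123, 85.8 and 125 CPM after Sp5 RNAi and at most 5.68 CPM in a mock library. Of the 12, 3 kept their call with the covariate of the most abundant genes, and 9 kept it in all other alternatives.

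**Figure D3:**
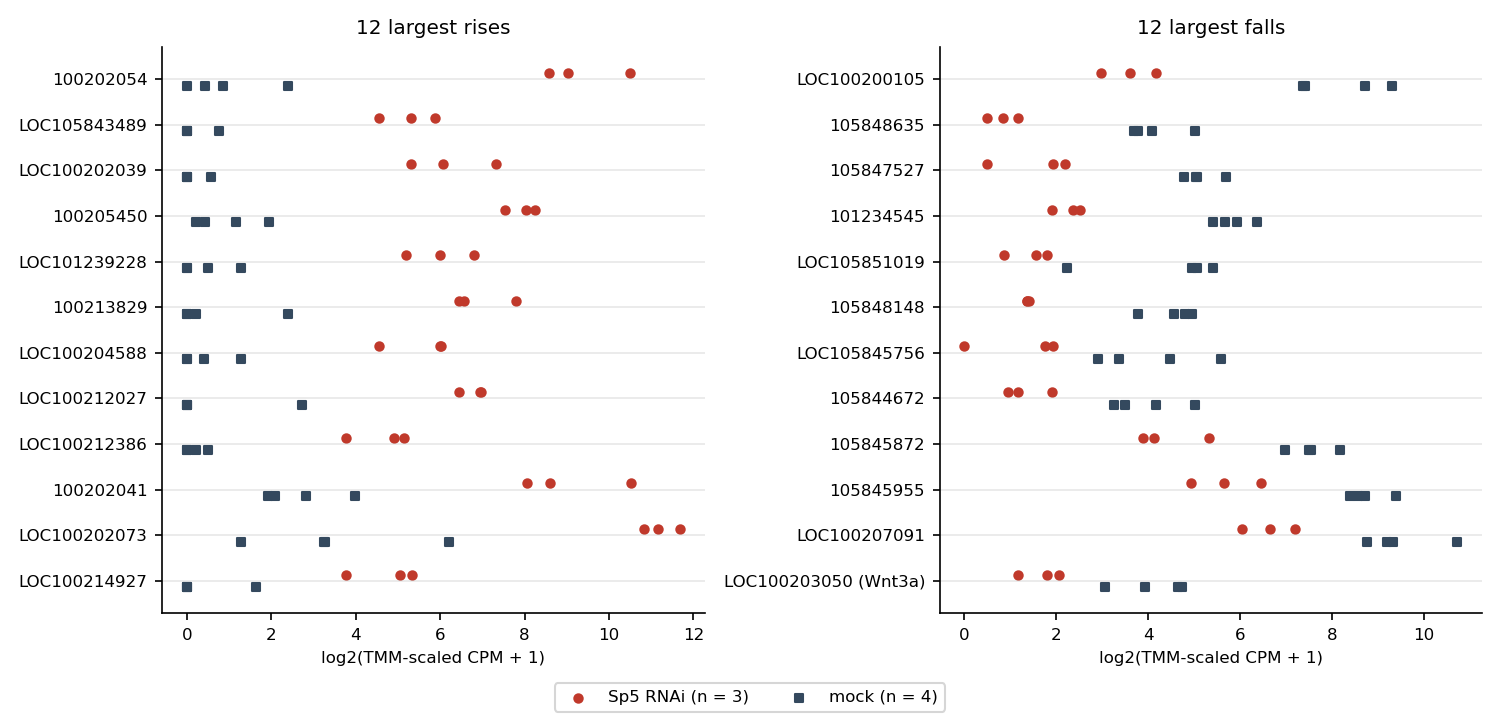
Level in each proximal library, as the log2 of CPM plus a constant, for the 12 largest rises (left) and the 12 largest falls (right) under the naming rule; red circles are the 3 Sp5 RNAi and dark squares the 4 mock libraries. Circles and squares do not overlap in any gene, as the rule required, and in the left panel 1 mock library often stands above the others.

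The largest falls were smaller than the largest rises and left a measurable level in most cases. LOC100200105 had 11.1, 16.9 and 6.88 CPM after Sp5 RNAi, against 169, 637, 164 and 421 CPM in mock. Its mean was 29.8-fold lower, with a log2 fold change of -4.91 (SE 0.70, edgeR adjusted p 2.60e-04), and it was called in all 16 alternatives. Gene 101234545 had the smallest adjusted p of the 12, with 4.13, 2.76 and 4.69 CPM after Sp5 RNAi, against 41.7, 81.6, 50.4 and 60.5 CPM in mock (log2 fold change -3.91, SE 0.45, edgeR adjusted p 1.29e-05). Both groups were tight, and the call also held in all 16 alternatives. Gene 105847527 had 0.413, 3.54 and 2.82 CPM after Sp5 RNAi and 26.6, 50.6, 32 and 32.4 CPM in mock and was likewise called in all 16.

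LOC100207091 had 64.8, 146 and 99.8 CPM after Sp5 RNAi, against 587, 1696, 641 and 432 CPM in mock, 8.1-fold lower on the means (log2 fold change -3.02, SE 0.53, edgeR adjusted p 0.00167). Gene 105845955, with 29.7, 87 and 49.4 CPM after Sp5 RNAi and 379, 668, 336 and 423 CPM in mock, had a nearly equal change (log2 fold change -3.03, SE 0.59). Gene 105845872 had 39.2, 16.5 and 13.8 CPM after Sp5 RNAi and 290, 186, 180 and 125 CPM in mock, a log2 fold change of -3.08 (SE 0.54). Wnt3a, described above, was the last of the 12. Of the others, 105848635, LOC105851019, 105848148 and LOC105845756 had log2 fold changes from -4.35 to -3.59, and 105844672, at -3.38, lost its call in 9 of 16 alternatives, among them the fits without each Sp5 RNAi replicate and without mock replicate 1. Without Sp5 RNAi replicate 3, gene 105848148 was not called either. In 8 of the 12 the highest mock library was mock replicate 2. With the covariate of the most abundant genes 4 of the 12 kept their call, and in all other alternatives 7 did.

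The 6 called genes with the highest counts all fell. LOC100202036 had 41410, 28240 and 30575 CPM after Sp5 RNAi, against 61684, 129404, 121095 and 56782 CPM in mock (log2 fold change -1.47, SE 0.31, edgeR adjusted p 0.00613). LOC100206987 had 30632, 21193 and 21021 CPM after Sp5 RNAi, against 41045, 97641, 83017 and 53991 CPM in mock (log2 fold change -1.51, SE 0.31, edgeR adjusted p 0.00521). For both genes mock replicates 2 and 3 stood above the other mock libraries. LOC100203778, LOC100211522, LOC100213922 and LOC100202037 had log2 fold changes of -1.35, -0.89, -1.76 and -1.03. Of the 6, LOC100213922 alone overlapped between the groups in CPM. None of the 6 was called with the covariate of the most abundant genes or in the fit of the 7 proximal libraries alone. TMM factors were 0.753 to 1.05 in Sp5 RNAi libraries and 0.541 to 0.777 in mock libraries, and a lower factor raises CPM. As a share of unscaled counts, LOC100211522 overlapped, at 0.747% in Sp5 RNAi replicate 3 and 0.641% in mock replicate 3. LOC100213922 did not overlap in that share. Without Sp5 RNAi replicate 3, LOC100202036 and LOC100206987 alone of the 6 were called.

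The same treatment in distal parts of the tentacle, with mock libraries of its own, gave fewer calls. There 328 of the 14332 genes were called (2.29%), 242 higher (1.69%) and 86 lower (0.6%). Of the 619 genes that rose in proximal parts, 562 (90.8%) were higher in distal parts too, and 132 (21.3%) were called higher. Of all tested genes 47.6% were higher in distal parts. Of the 339 that fell, 293 (86.4%) were lower in distal parts and 29 (8.55%) were called lower. No gene was called in opposite directions. The 161 genes called in both parts are 16.8% of the proximal and 49.1% of the distal calls. Median log2 fold changes of the proximal calls were 0.71 and -0.51 in distal parts, on genes chosen for their proximal values. Across all tested genes the log2 fold changes in the 2 parts had a Pearson correlation of 0.541, as a description, since genes are not independent and the parts come from the same treatment.

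**Figure D4:**
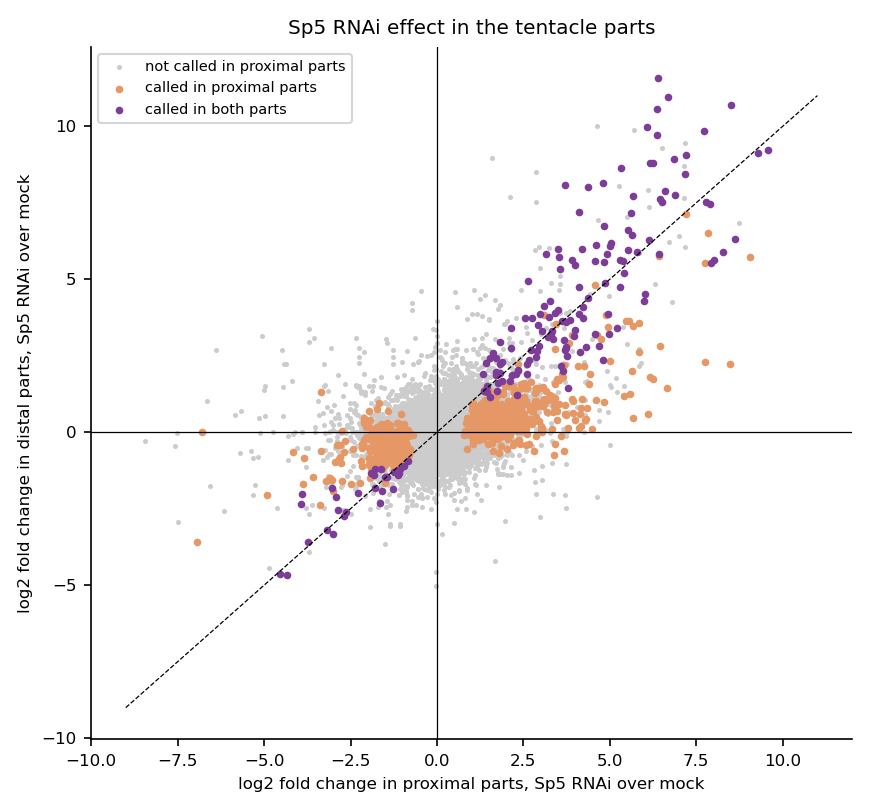
Log2 fold change of Sp5 RNAi over mock in distal parts (vertical axis) against that in proximal parts (horizontal axis) for the genes tested; orange points were called in proximal parts, violet points in both, and the dashed line marks equal changes. The 161 violet points have the same sign on both axes, while many orange points lie near 0 on the distal axis.

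Most of the largest proximal rises were also called in distal parts. Of the 12 largest proximal rises, 11 were called higher in distal parts as well, and of the 12 largest falls 4 were called lower. These shares were not compared by a test. LOC100202073 had 2438 ± 1969 CPM in distal parts after Sp5 RNAi (SD, n = 3) and 5.58 ± 4.76 CPM in distal mock (SD, n = 4; edgeR adjusted p 0.00396). LOC100207091 had 90.6 ± 31.2 CPM after Sp5 RNAi (SD, n = 3) and 900 ± 548 CPM in distal mock (SD, n = 4; edgeR adjusted p 8.04e-04), a log2 fold change of -3.31 beside the proximal -3.02. Of the 97 risen genes with at most 3 counts in every proximal mock library, 34 were called higher in distal parts.

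The called genes with a name were not called in distal parts: 0 of 10 by edgeR, 5 at an unadjusted p under 0.05, and 9 with the same direction as in proximal parts. hyfzd5/8 had 205 ± 5.5 CPM after Sp5 RNAi (SD, n = 3) and 155 ± 26.3 CPM in mock (SD, n = 4) in distal parts, a log2 fold change of 0.41 (edgeR adjusted p 0.405). Wnt3a was low in both distal groups, with 2.12 ± 1.33 CPM after Sp5 RNAi (SD, n = 3) and 4.62 ± 3.68 CPM in mock (SD, n = 4). A call in proximal parts alone does not show a difference between the parts. Tested as an interaction term, 0 of the 10 differed between proximal and distal parts, with 5 at an unadjusted p under 0.05. Over all tested genes, 1313 of 14332 were under that limit. The 10 were chosen for their proximal effect, which is part of this term, so small p-values are favoured among them.

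Over all genes, the effect of Sp5 RNAi differed between the parts for 2 genes of 14332 (0.014%), with 1313 at an unadjusted p under 0.05. Gene 101239783 had 11.1, 7.09 and 22.2 CPM after Sp5 RNAi, against 0, 0.356, 0.71 and 0.976 CPM in proximal mock (log2 fold change 4.48, SE 0.60, edgeR adjusted p 9.92e-05). In distal parts it had 4.42 ± 0.771 CPM after Sp5 RNAi (SD, n = 3) and 4 ± 1.36 CPM in mock (SD, n = 4). The effects differed by 4.39 on the log2 scale (edgeR adjusted p 0.0395). Gene 101235762 followed the same course, with 14.4, 10.2 and 26 CPM after Sp5 RNAi and 0.817, 1.07, 0.71 and 0.976 CPM in proximal mock, and 3.63 ± 1.42 CPM after Sp5 RNAi (SD, n = 3) and 2.94 ± 1.66 CPM in mock (SD, n = 4) in distal parts. Its effects differed by 3.98 on the log2 scale (edgeR adjusted p 0.0395). Both genes were low in proximal mock parts alone among these 4 groups. The difference between the parts rested on single libraries: of 14 fits without 1 library, 10 called no gene, 2 called 2 genes, that without proximal mock replicate 1 called 11 and that without distal mock replicate 4 called 6. Gene 101239783 was called in 3 of the 14, with an edgeR adjusted p of up to 0.199 in the others, and gene 101235762 in 4, with one of up to 0.17.

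Ectopic tentacles of the Sp5 RNAi animals held most of the transcripts with the 12 largest rises at still higher levels. By mean level, 9 of the 12 largest rises were in ectopic tentacles at least as high as in proximal parts after Sp5 RNAi. The same share was not counted over all tested genes, so the 9 of 12 are a description. LOC100202073 averaged 15337 ± 3702 CPM in ectopic tentacles (SD, n = 3) and 2471 ± 740 CPM in proximal parts after Sp5 RNAi (SD, n = 3). LOC100202039 averaged 467 ± 110 CPM in ectopic tentacles (SD, n = 3) and 88.4 ± 63.7 CPM in proximal parts (SD, n = 3). hyfzd5/8 was the other way round, with 70.2 ± 12.5 CPM in ectopic tentacles (SD, n = 3), below the 307 ± 45 CPM of proximal parts. No p-value is given for these values, since ectopic tentacles were taken whole.

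Proximal parts after Zic4 RNAi, a treatment against another zinc finger transcription factor, were compared with the same 4 mock libraries, so the values are given side by side only. hyfzd5/8 had 96.8 ± 22.7 CPM after Zic4 RNAi (SD, n = 4), against 307 ± 45 CPM after Sp5 RNAi. The log2 fold change of Wnt3a over mock was -2.72 after Zic4 RNAi and -2.96 after Sp5 RNAi. That of hywnt8 was -0.27 after Zic4 RNAi and -1.23 after Sp5 RNAi. For CnOtx the values were -1.46 after Zic4 RNAi and -1.08 after Sp5 RNAi, and for VEGF -3.17 after Zic4 RNAi and -1.71 after Sp5 RNAi. The 12 largest rises after Sp5 RNAi, at 6.69 to 9.58, had log2 fold changes of 2.96 to 7.39 after Zic4 RNAi. The 12 largest falls, at -4.91 to -2.96 after Sp5 RNAi, had -5.21 to -0.15 after Zic4 RNAi. The signs were thus the same after both treatments. Both comparisons use the same mock libraries, and the genes were chosen for their values against these, which favours a shared sign. Whether the large changes are particular to Sp5 RNAi was not tested.

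By the order of genes in the RefSeq annotation, which was used for neighbourhood only, 4129 pairs of tested genes were adjacent. In 6 of these pairs both genes rose, in 4 both fell, in 6 the genes changed in opposite directions, and in 479 a single gene of the pair was called. Over all tested genes 4.32% were called higher and 2.37% lower. The pair counts are a description, and a link between neighbours was not tested.

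The number of calls moved with the test and the libraries fitted. DESeq2 called 1449 genes, with 903 higher, 943 of them among the 958. voom called 430, with 227 higher (52.8%, against 64.6% in edgeR), 424 of them among the 958. Fitted alone, the 7 proximal libraries gave 302 calls, of which 234 were higher. Under all 16 alternatives 38 genes were called, and under all but those with a covariate 141.

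**Figure D5:**
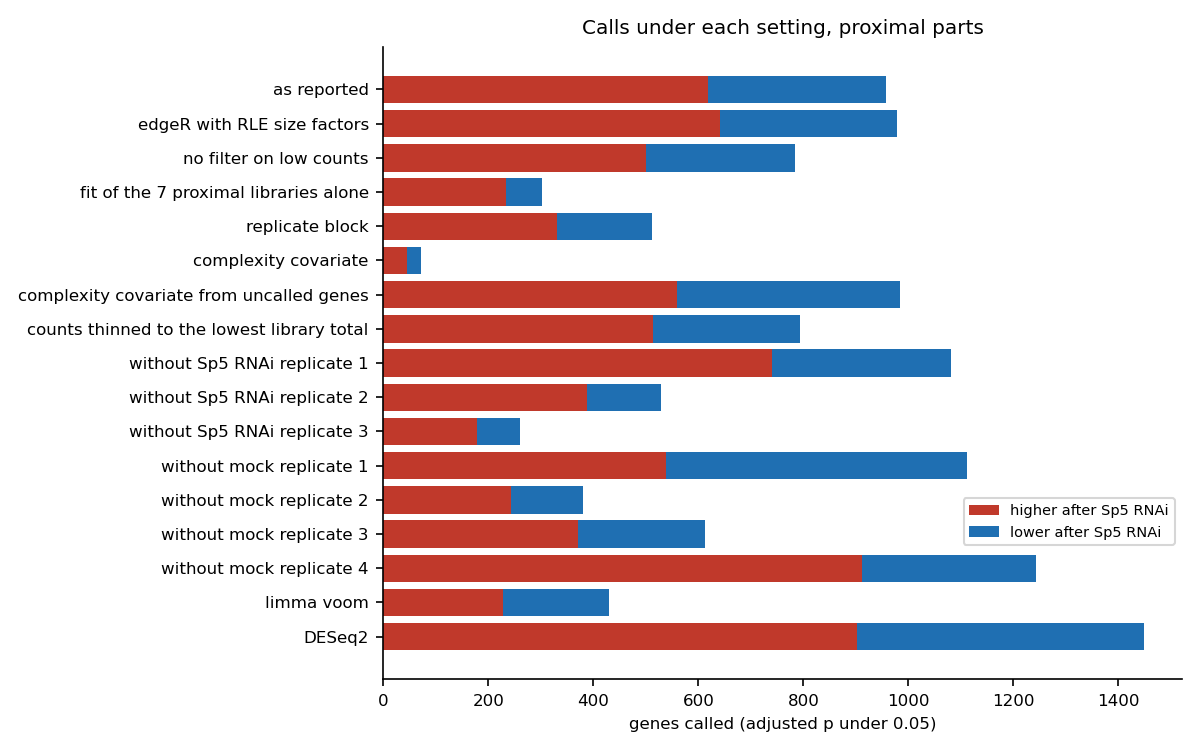
Number of genes called higher (red) and lower (blue) after Sp5 RNAi in proximal parts, as reported and under each of 16 alternatives. Bars run from 71 genes with the covariate of the most abundant genes to 1449 with DESeq2, and the red part is the longer in all but that without mock replicate 1, where 539 of 1112 were higher.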

How the data were processed

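Members and gene lists were chosen with earlier results of these data known. Per the labels' protocols, SmartSeq2 cDNA was tagmented with Tn5 and amplified by PCR; no molecular identifiers are mentioned, so intervals and floors cover counting error only. The submitters' processing notes name bcl2fastq and STAR 2.5.0. The counting program, genome build, annotation, strand setting and treatment of shared reads are not given in the sources used here, so genes with near-identical copies are uncertain. The authors deposited whole-number read counts per gene, used as deposited; the table has 22608 genes, and 9547 identifiers matched RefSeq genes of HydraT2T_AEP, used for names and neighbours.

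Counts of 25 libraries in 7 groups of divided and ectopic tentacles were fitted together with edgeR 4.0.16 in R 4.3.3 (filterByExpr, TMM, group as the only factor, robust quasi-likelihood F test), which left 14332 genes. The p-values were adjusted over these by Benjamini-Hochberg, with calls under 0.05, and standard errors come from the F statistic. Library pairs within the groups differed by more than sampling noise (chi-square per degree of freedom 9.34 to 71.9). On simulated counts of 14332 genes for this comparison, 84% of changes of 3 and 4% of changes of 1 on the log2 scale were recovered, with 4 false calls.

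Named were called genes with at least 10 CPM and no overlap (the 12 largest rises and 12 largest falls), members of Wnt and tentacle lists, the 6 most abundant called genes, and, added after values were seen, further genes with a name. The rule also asked for RefSeq descriptions, which the table used here does not hold, so that limit was not applied. Of 23 lists, 13 had no matched gene. Alternatives used DESeq2 1.42.0, limma 3.58.1 voom, other scaling, filters, covariates, thinning and fits without 1 library. Gene length and base composition were not checked, as 62.1% of tested genes matched.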

Additional observations from a re-analysis of the deposited data

Results flagged for a closer look

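For 49 genes named in the text, the 4 mock libraries were searched for a library standing far from the others, by Dixon's test of the gap to the nearest library at the 95% level. Chance gives such a gap in about 1 of 20 groups. Gene 100213829 had 4.26 CPM in mock replicate 3, LOC100212027 had 5.68 CPM and LOC100202073 had 73.2 CPM in the same library. LOC100207091 had 1696 CPM in mock replicate 2. zic1 stood out below, at 11 CPM in mock replicate 1. The calls of 100213829, LOC100212027, LOC100202073 and LOC100207091 held without the library in question.

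The effect of Sp5 RNAi differed between proximal and distal parts for gene 101239783, by 4.39 on the log2 scale, and for gene 101235762, by 3.98 (edgeR interaction term, adjusted p 0.0395 for both). These calls rested on single libraries: gene 101239783 was called in 3 and gene 101235762 in 4 of 14 fits without 1 library, and 10 of the 14 called no gene.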

How the results depend on the processing

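The 958 calls became 302 in the fit of the 7 proximal libraries alone, 71 with the covariate of the most abundant genes, 430 with voom and 1449 with DESeq2, and 261 to 1243 without 1 library. With RLE size factors the count was 978, without a filter 784 and with thinned counts 794. With the replicate block it was 512, 509 of them among the 958; deviations of same-numbered Sp5 RNAi and mock libraries correlated at 0.116, -0.0768 and -0.109, and those of same-numbered proximal and distal libraries of a treatment at -0.558 to 0.113, so neither pairing was found. The difference between parts, 2 genes, was 0 with the replicate block, 0 with a block of replicate number within treatment, chosen after seeing the data, and 0 to 11 without 1 library. With these blocks, in this order, the edgeR adjusted p was 0.177 and 0.745 for gene 101239783 and 0.177 and 0.445 for gene 101235762.

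Of the 24 list members tested, 2 were called (8.33%, near the 6.68% of all tested genes); the count was 1 without a filter, in the fit of the 7 libraries alone, with the replicate block, with thinned counts and with voom, 0 with the covariate of the most abundant genes, and 0 to 4 without 1 library. Of the genes with a name, 10 were called, 3 in the fit of the 7 libraries alone, 0 with that covariate, and 1 to 14 without 1 library.

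For 49 genes named in the text, 782 values under alternatives were compared with those reported: 653 kept direction and side of the threshold, 116 lost the call, 2 gained it and 11 changed sign. With the covariate of the most abundant genes, VEGF became 0.01, ctnnb1 -0.04 and Annexin-12 0.91 on the log2 scale. Without 1 library, zic1 ran from -0.67 to 0.22 (its highest without Sp5 RNAi replicate 1) and hywnt5a from -0.27 to 0.06 (its highest without mock replicate 4). hywnt7 was 0.10 with the replicate block, 0.01 with DESeq2 and with thinned counts, and -1.18 to 1.05 without 1 library, being positive without Sp5 RNAi replicate 1, Sp5 RNAi replicate 2 or mock replicate 4. The cause was not tested. Depth limits genes near 1 CPM most, where a library holds a few counts.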
